A study of Mus musculus with 12 samples.

Results

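The 10 genes described here encode the glucocorticoid receptor (Nr3c1), its close relative the mineralocorticoid receptor (Nr3c2), the chaperone machinery that holds the receptor ready for hormone (Hsp90aa1, Hsp90ab1, Stip1, Ptges3, Fkbp5 and Fkbp4), the enzyme that activates glucocorticoids inside cells (Hsd11b1) and a coactivator that steroid receptors recruit (Ncoa1). They were chosen by name for these roles, with earlier results of these data known, out of 18194 genes that the array annotation names. Of the 10 genes, 8 had probe sets of their own, 23 probe sets among the 45101 on the array. A probe set is the group of short oligonucleotides that together report 1 transcript. Of these 23, 15 probe sets belonging to 6 genes reached a group mean of 50 or more and were tested. Nr3c2 and Hsd11b1 stayed below that minimum and are given by their levels. Ptges3 was represented by 2 probe sets shared with its pseudogene Ptges3-ps, so their signal cannot be assigned to the gene alone, and they were counted separately. Hsp90ab1 was not analysed here.

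Primary chondrocytes, the cartilage cells of the growing skeleton, were taken from the tibiae, femurs and humeri of CD1 mouse embryos at E15.5 and grown as monolayers. The cultures received 100 nM dexamethasone (DEX), a synthetic glucocorticoid, or DMSO as vehicle, and total RNA was collected after 6 or 24 hrs. Each of the 4 groups (DEX 6 hrs, vehicle 6 hrs, DEX 24 hrs and vehicle 24 hrs) held 3 arrays, numbered 1, 2 and 4, for 12 arrays in all. The methods speak of independent cell isolations, but nothing in the labels ties an array to an isolation, so the p-values measure the spread between these arrays.

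A glucocorticoid enters the cell freely and binds its receptor in the cytoplasm. The unbound receptor is folded into a hormone-binding shape by the HSP90 chaperone, which works with the adaptor Stip1 (also called Hop), with p23, the product of Ptges3, and with 1 of several immunophilins, proteins that bind the drug FK506. FKBP51, the product of Fkbp5, lowers the affinity of the complex for hormone, whereas FKBP52, the product of Fkbp4, couples it to transport into the nucleus. In many tissues Fkbp5 is itself a direct target of the activated receptor, which forms a negative feedback loop, and receptor mRNA is reduced by its own ligand. The enzyme 11β-hydroxysteroid dehydrogenase type 1, the product of Hsd11b1, converts inactive 11-keto glucocorticoids to their active form, and type 2, the product of Hsd11b2, does the opposite.

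The arrays were hybridized on 4 days, numbered here in order. Day 1 held replicate 2 of 24 hrs, day 2 held replicates 1 and 4 of 24 hrs, day 3 held replicates 1 and 2 of 6 hrs, and day 4 held replicate 4 of 6 hrs. Each day held DEX and vehicle arrays of the same numbers, and no day held both time points, so time and day cannot be told apart. On the 4 arrays of day 3 the 3′ probe set of the Gapdh control exceeded the 5′ probe set by a median of 0.64 (0.49 to 0.74) on the log2 scale, against -0.31 (-0.33 to -0.22) on the other 8 arrays. All 15 of 15 cartilage markers were expressed, as were 10 of 10 markers of tendon and perichondrium fibroblasts, 10 of 12 of skeletal muscle, 6 of 11 of macrophages, 1 of 8 of endothelium and 1 of the 4 erythroid markers named on the array. The summed intensity of the macrophage markers was 623 to 813 with DEX and 574 to 888 with vehicle at 6 hrs. At 24 hrs it was 558 to 688 with DEX and 707 to 901 with vehicle. Adipocyte markers had 4 of the 6 genes named on the array expressed, with a summed intensity of 1463 to 2362 with DEX and 1058 to 1798 with vehicle at 6 hrs, and of 1851 to 2340 with DEX and 968 to 1070 with vehicle at 24 hrs. Osteoblast markers had 4 of the 5 genes named on the array expressed, with 1860 to 2030 with DEX and 1428 to 1788 with vehicle at 6 hrs, and 2514 to 3719 with DEX and 1412 to 1988 with vehicle at 24 hrs. The sums thus did not overlap for macrophages and adipocytes at 24 hrs and for osteoblasts at both times. Of single tested probe sets, 3.04% had DEX above vehicle on every array at 6 hrs. At 24 hrs 8.45% had DEX above and 10.9% had DEX below. The share among sums of other genes was not computed. The part of these markers in the results below was not tested, and in RNA from whole cultures fewer cells of a type and less RNA per cell cannot be told apart.

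Among the genes of this pathway, Fkbp5 was the one that responded clearly to DEX. It rose 5.52-fold at 6 hrs and 3.85-fold at 24 hrs on its brightest probe set. Nr3c1 was lower with DEX in every pair of arrays on both of its bright probe sets (0.749-fold and 0.730-fold over both times), as were 4.71% of tested probe sets. Over both times this difference passed the limma test with pair or hybridization day as a block (adjusted p from 0.0286 to 0.0485) and not in the fit of group means. Neither time alone was called in any of these fits. The other tested Nr3c1 probe sets were lower in 4 and 5 of 6 pairs and were not called in them. Transcripts of the HSP90 chaperone, Stip1, Fkbp4 and Ncoa1 were not called in any comparison on their representative probe sets. The plot of array values of the 8 measured genes shows these levels.

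**Figure D1:**
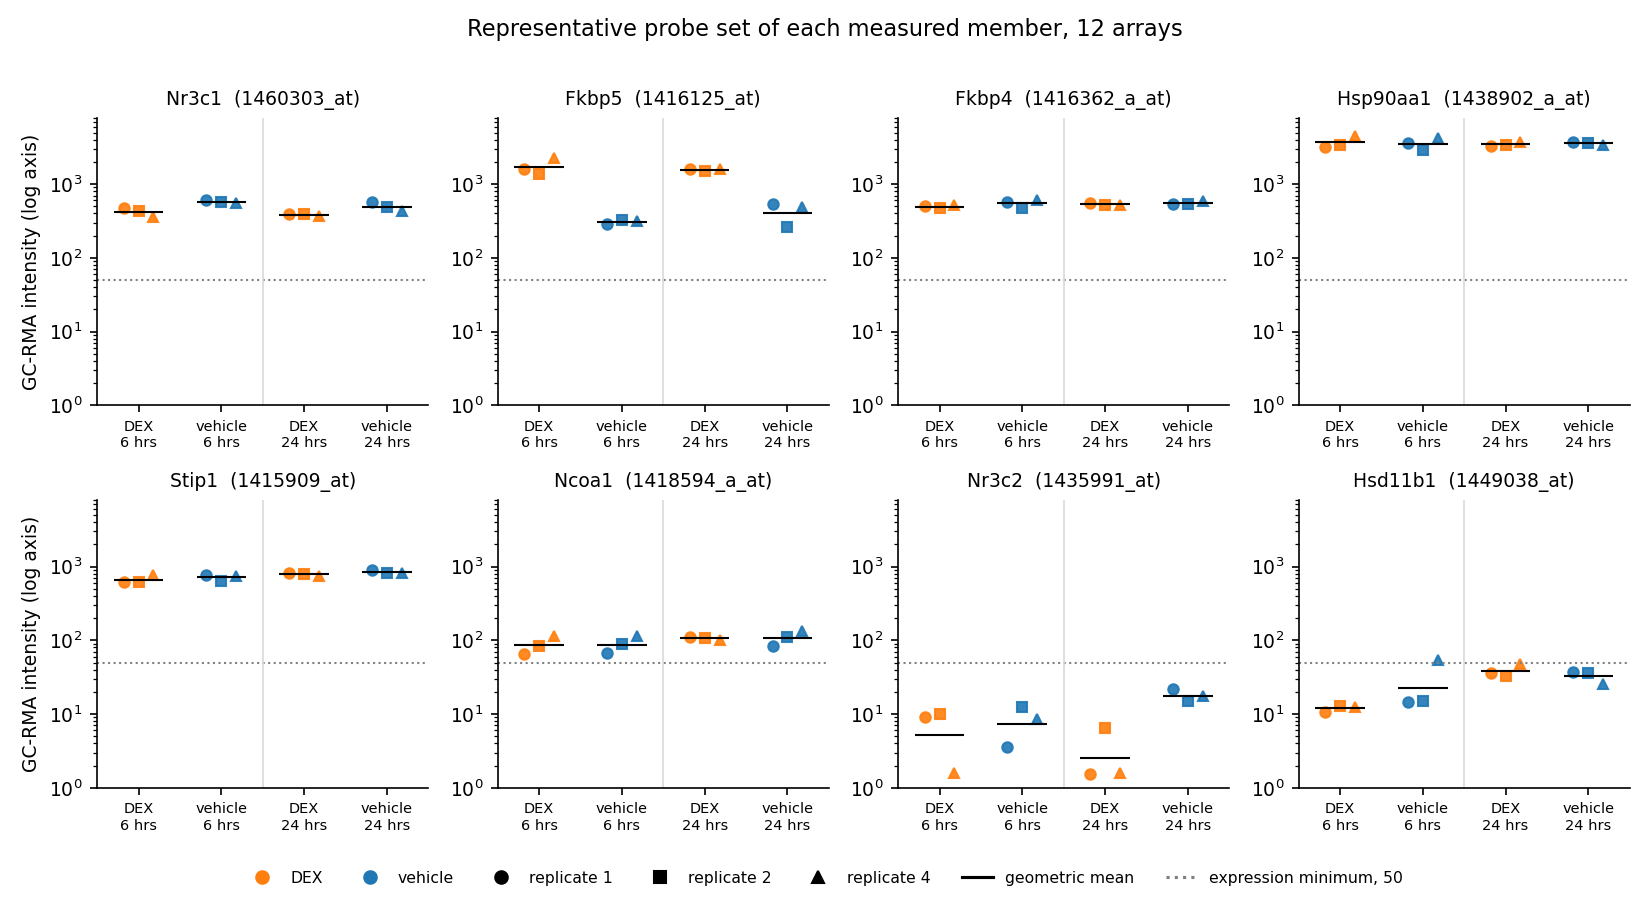
Array intensities (log axis) of the representative probe set of 8 genes in the 4 groups, with 1 point for each of 3 arrays per group, marker shape for the replicate number, a bar at the geometric mean and a dotted line at the expression minimum of 50. Fkbp5 separates DEX from vehicle at both times, Nr3c1 lies slightly lower with DEX, and Nr3c2 and Hsd11b1 have all group means under the minimum.

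A probe set was called changed when its limma p-value, adjusted over all 20897 tested probe sets by the method of Benjamini and Hochberg, was below 0.05. At 6 hrs 1 of the 15 probe sets was called, where 0.225% of all tested probe sets were. At 24 hrs 1 of 15 was called, against 0.287% of all, and over both times 2 of 15 were called, against 0.747% of all. All of these calls were rises of Fkbp5. When DEX and vehicle arrays were compared within hybridization days, 2 of 15 were called at 6 hrs (0.948% of all), 2 at 24 hrs (2.18%) and 4 over both times (2.87%). Comparing them within pairs of the same replicate number gave 2, 2 and 4 of 15, where 0.904%, 2.15% and 3.2% of all probe sets were called. The 4 probe sets over both times were 2 of Fkbp5, which rose, and 2 of Nr3c1, which fell. No member's response differed between the 2 times after adjustment, and neither did that of any other probe set (0% called by limma, with 758 of 20897 at an unadjusted p under 0.05). The median log2 fold change over both times was -0.09 for the 15 probe sets and -0.02 for all tested probe sets.

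**Figure D2:**
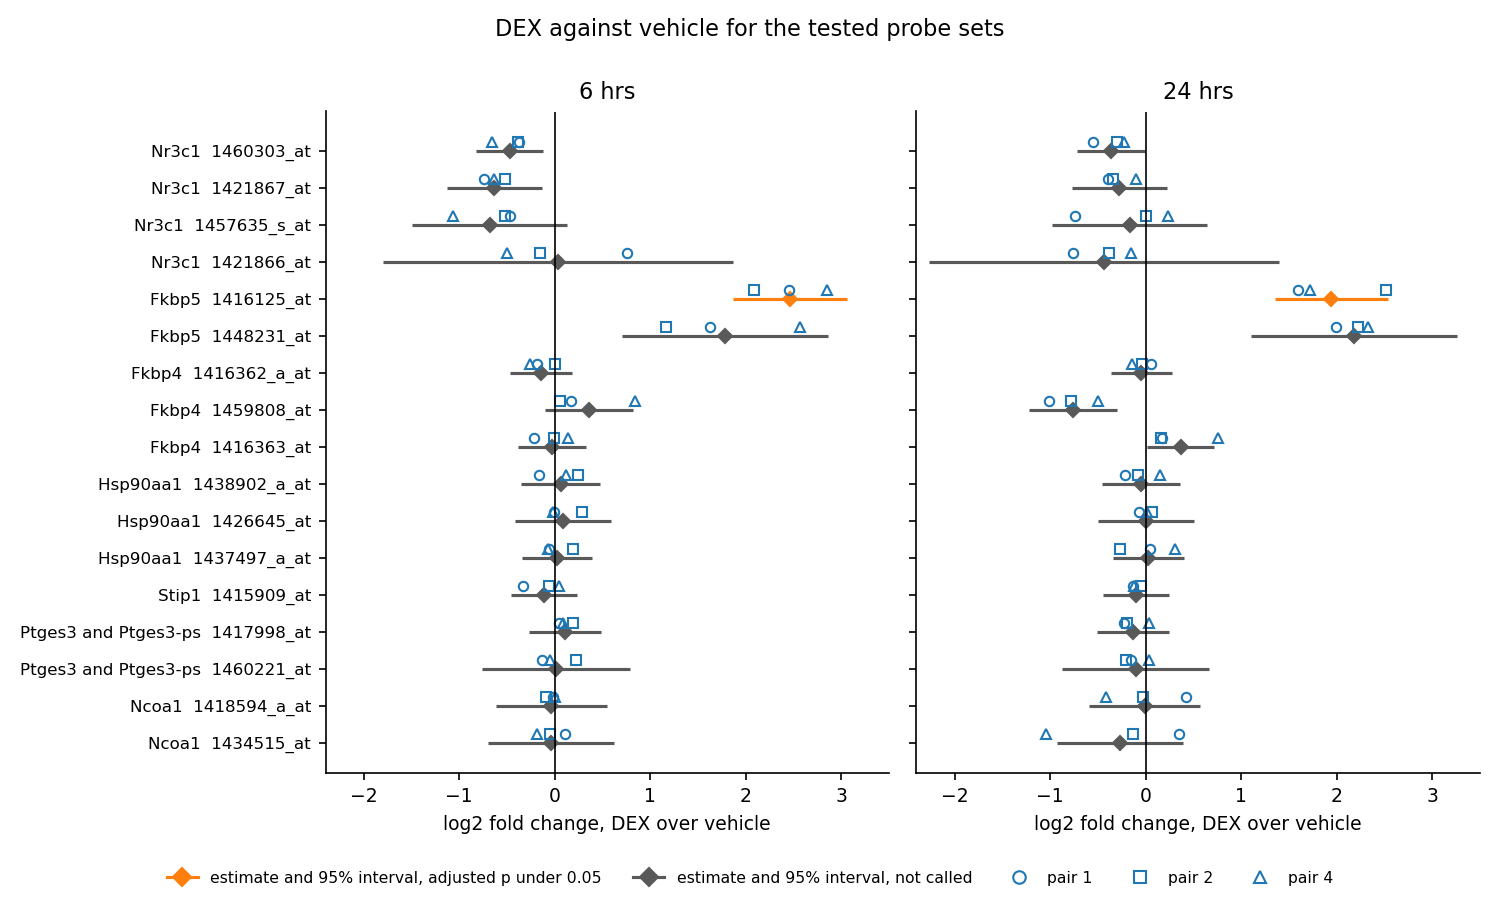
Log2 fold change of DEX over vehicle at 6 hrs (left) and 24 hrs (right) for the tested probe sets, as the limma estimate with its 95% confidence interval (diamond and line) and as the differences of the 3 single pairs (open markers). The estimates of the Fkbp5 probe sets lie between 1.78 and 2.46, while the intervals of Hsp90aa1, Stip1 and Ncoa1 include 0 at both times.

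Fkbp5 was measured with 2 tested probe sets. On the brighter one, 1416125_at, the intensities were 1592, 1366 and 2262 with DEX and 290, 321 and 314 with vehicle at 6 hrs (replicates 1, 2 and 4). At 24 hrs they were 1618, 1485 and 1591 with DEX and 535, 258 and 484 with vehicle. The lowest DEX array therefore stood above the highest vehicle array at either time, a separation that 3.04% of tested probe sets showed at 6 hrs and 8.45% at 24 hrs, and vehicle replicate 2 at 24 hrs, the lowest of all, was the vehicle array hybridized on day 1. The log2 fold change came to 2.46 (standard error 0.27, adjusted p = 0.00356) at 6 hrs, 1.95 (standard error 0.27, adjusted p = 0.0158) at 24 hrs and 2.20 (standard error 0.19, adjusted p = 0.00026) over both times. By the size of the rise it had rank 16 of 20897 probe sets at 6 hrs and rank 45 at 24 hrs. Single pairs gave 2.46, 2.09 and 2.85 at 6 hrs and 1.60, 2.52 and 1.72 at 24 hrs, so DEX was higher in 6 of 6 pairs, as on 4.29% of tested probe sets. The response at 24 hrs minus that at 6 hrs was -0.52 (95% confidence interval -1.36 to 0.32, adjusted p = 1), an interval that holds smaller, equal and larger responses at 24 hrs. The call at 24 hrs was lost when any 1 of the 3 DEX arrays of that time was left out (adjusted p = 0.0775, 0.0714 and 0.0876 without replicates 1, 2 and 4), with log2 fold changes of 1.92 to 1.98. Leaving out the 4 arrays of day 3, an alternative added after seeing the data, kept 1 array of each group at 6 hrs, so the spread came from the 24 hrs arrays alone and these single arrays were assumed to vary like them (log2 fold change 2.85, adjusted p = 0.0813).

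The second Fkbp5 probe set, 1448231_at, gave 221, 241 and 975 with DEX and 71.9, 108 and 165 with vehicle at 6 hrs, and 750, 741 and 851 with DEX and 188, 158 and 170 with vehicle at 24 hrs. Again no DEX array overlapped with a vehicle array, and the 2 arrays of day 4 were higher than those of day 3, by 2.08 with DEX and 0.90 with vehicle on the log2 scale. Its log2 fold change came to 1.78 at 6 hrs (standard error 0.49, adjusted p = 0.507), 2.18 at 24 hrs (standard error 0.49, adjusted p = 0.157) and 1.98 over both times (standard error 0.35, adjusted p = 0.0253). Without DEX replicate 4 the value at 6 hrs was 1.09 (adjusted p = 0.428). The response at 24 hrs minus that at 6 hrs was 0.40 on this probe set (95% confidence interval -1.13 to 1.93, adjusted p = 1), of opposite sign to that of the brighter one, and it was -0.060 for the mean of both. Within hybridization days the adjusted p was 0.00778 at 6 hrs and 0.00181 at 24 hrs, and within pairs 0.0246 and 0.0072. The call over both times was lost on leaving out 1 of 8 of the 12 arrays in turn (adjusted p from 0.0709 to 0.0879), which were all 6 arrays of 24 hrs and vehicle replicates 1 and 2 of 6 hrs, and was kept without the 4 arrays of day 3 (log2 fold change 2.37, adjusted p = 0.000427, with the same assumption for the single arrays of 6 hrs). Another probe set, 1447736_at, was under 10 on all 12 arrays and was not tested.

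**Figure D3:**
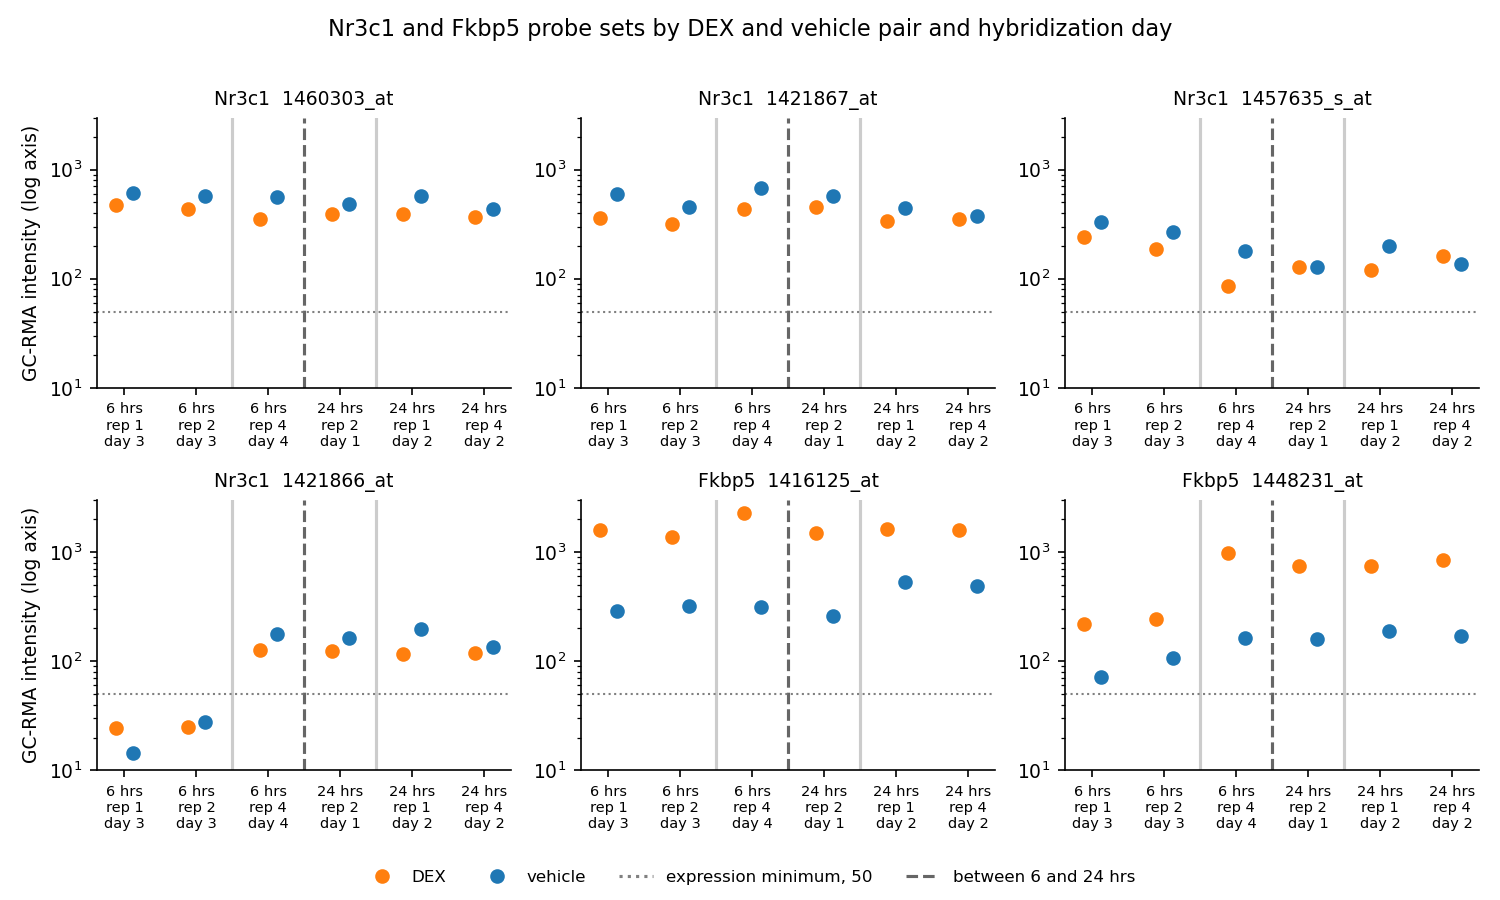
Intensity (log axis) of 4 Nr3c1 and 2 Fkbp5 probe sets on each DEX and vehicle pair, ordered by time and hybridization day, with DEX left of its vehicle partner and a dotted line at the minimum of 50. DEX lies below vehicle in 6 of 6 pairs on 1460303_at and 1421867_at, above it in 6 of 6 pairs on both Fkbp5 probe sets, and 1421866_at is low on the 4 arrays of day 3.

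The start of the 2 immunophilin genes is shown because one of them responded to DEX and the other was not called. The windows hold 250 bases before and 50 bases after the transcription start, from RefSeq (GRCm38.p6). Windows of 7 of the 10 genes were searched, and those of the other genes are not reported here. That of Fkbp5 is chr17:28486100-28486399 and that of Fkbp4 is chr6:128438607-128438906, both on the minus strand and written 5′ to 3′. Capitals mark a match to any of 3 motifs searched on both strands.
Fkbp5: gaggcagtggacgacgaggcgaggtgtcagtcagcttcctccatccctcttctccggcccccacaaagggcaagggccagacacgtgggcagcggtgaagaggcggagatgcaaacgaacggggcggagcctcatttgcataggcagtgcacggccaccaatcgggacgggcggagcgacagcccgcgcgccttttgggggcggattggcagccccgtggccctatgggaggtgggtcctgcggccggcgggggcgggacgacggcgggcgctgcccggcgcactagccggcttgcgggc
Fkbp4: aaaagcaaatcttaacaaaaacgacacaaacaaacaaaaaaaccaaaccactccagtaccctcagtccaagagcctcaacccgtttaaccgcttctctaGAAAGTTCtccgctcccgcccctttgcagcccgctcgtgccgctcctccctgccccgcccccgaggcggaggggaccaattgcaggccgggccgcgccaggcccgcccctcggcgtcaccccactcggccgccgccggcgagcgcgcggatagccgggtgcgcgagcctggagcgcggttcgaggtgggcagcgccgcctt
The motifs were the palindromic glucocorticoid response element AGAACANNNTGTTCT, its single arm AGAACA, which the full element contains, and the core of a heat shock element, GAANNTTC. The Fkbp5 window held none of them, and its GC content was 70.7%. The Fkbp4 window held 1 heat shock element core, beginning 151 bases before the start, at a GC content of 65.3%. Among 32851 promoter windows of the same length, 0.00913% held the full element, 19.0% the single arm and 7.86% the heat shock element core. Of the other 5 genes searched, Nr3c2 held 1 heat shock element core and Ncoa1 1 single arm, whereas Stip1, Ptges3 and Hsd11b1 held no match. Sequence outside these windows was not searched.

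Fkbp4 had 3 probe sets of very different brightness. The brightest, 1416362_a_at, read 504, 468 and 514 with DEX and 571, 467 and 614 with vehicle at 6 hrs, and 557, 517 and 528 with DEX and 537, 533 and 583 with vehicle at 24 hrs. DEX and vehicle arrays overlapped at both times. The log2 fold change came to -0.14 at 6 hrs (95% confidence interval -0.47 to 0.18) and -0.04 at 24 hrs (-0.37 to 0.28), both with an adjusted p of 1. The other 2 probe sets lay close to the expression minimum. On 1459808_at the intensities were 45.1, 49.6 and 71.6 with DEX and 40.0, 47.9 and 40.0 with vehicle at 6 hrs, and 47.7, 58.6 and 72.0 with DEX and 96.5, 101 and 101 with vehicle at 24 hrs. Here DEX was above vehicle in 3 of 3 pairs at 6 hrs and below it in 3 of 3 pairs at 24 hrs, neither of which was called (log2 fold change 0.35, adjusted p = 1, and -0.76, adjusted p = 0.32). On 1416363_at, whose values were all between 29.8 and 61.3, the log2 fold change came to -0.03 at 6 hrs and 0.37 at 24 hrs (adjusted p = 0.773). At 24 hrs DEX lay above vehicle on every array, as on 8.45% of tested probe sets. The 3 probe sets thus gave different signs at 24 hrs.

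Nr3c1, the receptor through which DEX acts, had 4 tested probe sets. On the brightest, 1460303_at, the intensities at 6 hrs were 473, 435 and 355 with DEX and 615, 568 and 559 with vehicle. At 24 hrs they were 388, 391 and 370 with DEX and 568, 483 and 435 with vehicle. DEX was below vehicle on every array at both times, a separation that 2.96% of tested probe sets showed at 6 hrs and 10.9% at 24 hrs. Neither time alone was called, at -0.47 for 6 hrs (standard error 0.16, adjusted p = 0.884, 0.205 within days and 0.172 within pairs) and -0.36 for 24 hrs (standard error 0.16, adjusted p = 0.786, 0.222 within days and 0.191 within pairs). The log2 fold change over both times was -0.42 (standard error 0.11), with an adjusted p of 0.23 in the fit of group means, of 0.0469 within hybridization days and of 0.0485 within pairs, and of 0.0377 with array quality weights. The second probe set, 1421867_at, gave 360, 314 and 439 with DEX and 602, 451 and 683 with vehicle at 6 hrs. Its values at 24 hrs were 341, 450 and 351 with DEX and 448, 569 and 375 with vehicle. DEX was again lower in 6 of 6 pairs, as on 4.71% of all tested probe sets, and the groups were apart at 6 hrs and overlapped at 24 hrs. Its log2 fold change came to -0.63 at 6 hrs (standard error 0.22, adjusted p = 0.961), -0.28 at 24 hrs (standard error 0.22, adjusted p = 1) and -0.45 over both times (standard error 0.16, adjusted p = 0.535). Over both times the adjusted p was 0.0382 within days and 0.0286 within pairs.

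The remaining Nr3c1 probe sets were less even. On 1457635_s_at the values were 241, 186 and 85.4 with DEX and 333, 267 and 178 with vehicle at 6 hrs, and 119, 129 and 160 with DEX and 199, 129 and 136 with vehicle at 24 hrs. It was lower with DEX in 3 of 3 pairs at 6 hrs and in 1 of 3 at 24 hrs, with log2 fold changes of -0.68 (standard error 0.37) and -0.17 (standard error 0.37), neither called. On 1421866_at the 4 arrays of day 3 read 24.2 and 24.9 with DEX and 14.4 and 27.9 with vehicle, against 126 with DEX and 178 with vehicle on day 4 and 117 to 198 at 24 hrs. The step from day 3 to day 4 was 2.36 with DEX and 3.16 with vehicle on the log2 scale, while the DEX difference at 6 hrs was 0.03 (standard error 0.83). These 4 arrays are those with the high 3′ to 5′ ratio of Gapdh, and the part of RNA quality in this step was not tested. At 24 hrs DEX lay below vehicle on every array of this probe set (117, 124 and 120 with DEX, 198, 162 and 134 with vehicle), at -0.43 (standard error 0.83, adjusted p = 1). Of all tested probe sets, 10.9% showed this separation at 24 hrs. The last 2 probe sets of the gene were under 50 on all 12 arrays. The DEX response of Nr3c1 did not differ detectably between the times (0.11 on 1460303_at, 95% confidence interval -0.39 to 0.61).

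Nr3c2, the mineralocorticoid receptor, which also binds glucocorticoids, was near the bottom of the intensity scale. Its only probe set read 9.17, 9.88 and 1.60 with DEX and 3.55, 12.3 and 8.61 with vehicle at 6 hrs. At 24 hrs it read 1.55, 6.46 and 1.58 with DEX and 21.7, 14.9 and 17.5 with vehicle. The 24 hrs values with DEX were all below those with vehicle, a separation that 10.9% of tested probe sets showed. Every array was under the minimum of 50, and no test or fold change is given.

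Hsp90aa1, the inducible cytosolic HSP90, was among the bright transcripts and had 3 tested probe sets. On 1438902_a_at the intensities were 3210, 3427 and 4552 with DEX and 3612, 2906 and 4209 with vehicle at 6 hrs, and 3250, 3413 and 3754 with DEX and 3776, 3596 and 3384 with vehicle at 24 hrs. DEX was higher in 3 of 6 pairs, and the groups overlapped. The log2 fold change came to 0.06 at 6 hrs (95% confidence interval -0.35 to 0.47) and -0.05 at 24 hrs (-0.46 to 0.36), both with an adjusted p of 1. On the other 2 probe sets the log2 fold changes ranged from 0.0015 at 24 hrs to 0.09 at 6 hrs, with DEX higher in 3 of 6 pairs on each, and 2 dim ones were under the minimum on all arrays.

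Stip1, the adaptor that brings HSP70 and HSP90 together, read 610, 609 and 777 with DEX and 767, 633 and 751 with vehicle at 6 hrs, and 824, 801 and 742 with DEX and 901, 829 and 808 with vehicle at 24 hrs. It was lower with DEX in 5 of 6 pairs, by a margin within the spread of the arrays. The log2 fold change came to -0.11 at 6 hrs (95% confidence interval -0.45 to 0.23) and -0.10 at 24 hrs (-0.44 to 0.24), each with an adjusted p of 1. The probe sets shared by Ptges3 and Ptges3-ps were bright, between 1163 and 2687. On 1417998_at the log2 fold change came to 0.11 at 6 hrs (95% confidence interval -0.27 to 0.48) and -0.13 at 24 hrs (-0.51 to 0.24). On 1460221_at it was 0.01 (-0.76 to 0.78) and -0.10 (-0.88 to 0.67), and none of these was called. Both DEX and vehicle arrays of day 4 stood apart from those of day 3 on the second of these probe sets, by 1.02 with DEX and 1.12 with vehicle, and in the opposite direction on the first, by -0.34 with DEX and -0.31 with vehicle.

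Hsd11b1, which regenerates active glucocorticoid, was below the minimum in every group. Its intensities were 10.6, 12.8 and 12.3 with DEX and 14.7, 14.9 and 54.8 with vehicle at 6 hrs, and 36.2, 32.7 and 47.5 with DEX and 37.5, 36.3 and 25.6 with vehicle at 24 hrs. A single array, vehicle replicate 4 at 6 hrs, exceeded 50. The DEX arrays of 6 hrs were all below those with vehicle, a separation that 2.96% of tested probe sets showed at that time. The gap was narrow, with the highest DEX array at 12.8 and the lowest vehicle array at 14.7, both under the minimum. At 24 hrs DEX and vehicle overlapped. No test or fold change is given.

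Ncoa1, the steroid receptor coactivator SRC-1, was expressed at a low level, with 2 tested probe sets. On 1418594_a_at the values were 65.4, 82.5 and 115 with DEX and 66.4, 88.1 and 114 with vehicle at 6 hrs, and 111, 108 and 99.8 with DEX and 83.2, 110 and 133 with vehicle at 24 hrs. The arrays of a pair were nearly equal at 6 hrs, and those of day 4 were the highest of both groups at that time. The log2 fold change came to -0.04 at 6 hrs (95% confidence interval -0.62 to 0.54) and -0.01 at 24 hrs (-0.59 to 0.57). The second, 1434515_at, gave -0.04 (-0.70 to 0.62) and -0.27 (-0.93 to 0.39). None of these differences was called.

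The wider pathway was read from lists of 116 further genes, of which 107 were named on the array and 95 were tested, each by its brightest tested probe set. None of the 95 was called by limma at 6 hrs, at 24 hrs or over both times, with 1, 5 and 5 of them at an unadjusted p under 0.05, where 0.308%, 0.38% and 0.932% of all 11053 tested genes were called. The median log2 fold change over both times was 0.02 for 18 heat shock proteins, -0.06 for 20 HSP90 co-chaperones, 0.04 for 11 FK506 binding proteins, -0.03 for 24 coregulators, 0.03 for 8 steroid enzymes and carriers and -0.0033 for 12 nuclear import factors, and -0.02 for all genes. Within each list the gene with the smallest p over both times is named here. The small heat shock protein Hspb1 had intensities of 517, 403 and 921 with DEX and 299, 262 and 497 with vehicle at 6 hrs, and of 1399, 871 and 1387 with DEX and 571, 469 and 382 with vehicle at 24 hrs. Like Hspa1b and Dnajb4 of the same list, it was higher with DEX in 6 of 6 pairs, as on 4.29% of tested probe sets. On all 3 DEX arrays of 24 hrs it was above every vehicle array. At that time 8.45% of tested probe sets had DEX above vehicle on every array. Its log2 fold change came to 0.77 at 6 hrs (standard error 0.35, adjusted p = 1), 1.35 at 24 hrs (standard error 0.35, adjusted p = 0.248) and 1.06 over both times (standard error 0.24, adjusted p = 0.11). With a block it was called at 24 hrs (adjusted p = 0.00966 within days and 0.0152 within pairs) and over both times (0.00293 and 0.00647), where 2.48% of all genes were called within days and 2.51% within pairs at 24 hrs, and 3.22% and 3.59% over both times. Within pairs 1 further gene was called over both times, Smarcd1, a chromatin remodelling subunit singled out after its values were seen (log2 fold change -0.43, adjusted p = 0.0396, against 0.242 within days and 1 in the fit of group means). Hspb1 stood apart from the rest of its list, whose other tested genes lay between -0.18 (Dnaja1) and 0.36 (Dnajb4) over both times.

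**Figure D4:**
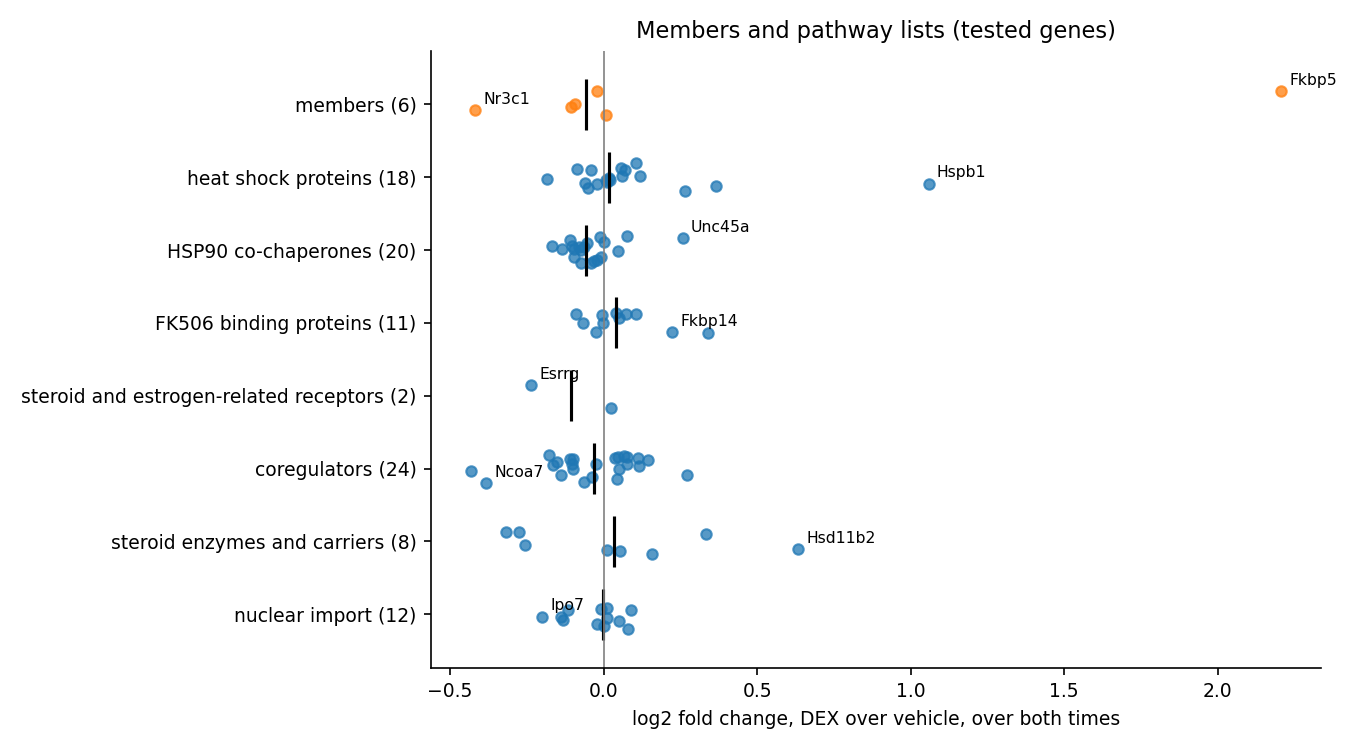
Log2 fold change of DEX over vehicle over both times for the 6 tested genes described here (orange) and the tested genes of 7 pathway lists (blue, number of genes in parentheses), 1 point per gene with a bar at the median and vertical jitter only for legibility. Fkbp5 at 2.20 and Hspb1 at 1.06 lie apart on the right, and the list medians lie between -0.11 and 0.04.

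Of the other immunophilins, Fkbp14, of the endoplasmic reticulum, was higher with DEX in 6 of 6 pairs but by 0.22 only (standard error 0.12, adjusted p = 1), and the co-chaperone Unc45a was at 0.26 (standard error 0.17, adjusted p = 1) with 4 of 6 pairs higher. Among coregulators Ncoa7 was lower in 6 of 6 pairs at -0.38 (standard error 0.16, adjusted p = 0.813), and Ipo7, an importin that carries proteins into the nucleus, was lower in 6 of 6 pairs at -0.20 (standard error 0.11, adjusted p = 1). All 6 pairs were higher on 4.29% of tested probe sets and lower on 4.71%. Of the same lists, Med14, Smarcd1 and Xpo1 were also lower in 6 of 6 pairs, as was Dnaja1 of the heat shock proteins. Of the steroid enzymes and carriers, H6pd was higher and Abcc1 lower in 6 of 6 pairs. Their log2 fold changes over both times were 0.33 and -0.32, and neither was called with or without a block. The differences of Fkbp14, Unc45a, Ncoa7 and Ipo7 were small beside that of Fkbp5 and were not called with either block. Of 7 listed sex steroid and estrogen-related receptors 2 were tested, the orphan receptors Esrra and Esrrg. Esrrg passed the minimum only through the vehicle arrays of 24 hrs (group mean 52.05), the group where it was highest. Such a filter favours a fall, so no fold change is given, and the gene was not called with or without a block. Progesterone and estrogen receptors (Pgr, Esr1 and Esr2) had no group mean above 37.4. Hsd11b2, the inactivating enzyme, passed the minimum only through the DEX arrays of 24 hrs (group mean 55.85), the group where it was highest. It read 17.5, 23.1 and 35.5 with DEX and 24.4, 15.3 and 18.7 with vehicle at 6 hrs, and 62.5, 34.4 and 70.7 with DEX and 38.9, 21.9 and 26.3 with vehicle at 24 hrs. DEX was higher in 5 of 6 pairs, and the gene was not called with or without a block. A filter passed through the DEX group alone favours a rise, so no fold change is given.

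The genes whose pattern was most like that of Fkbp5 were found by correlation over the 12 arrays after subtracting the mean of each hybridization day, among 11052 other genes. They were Epn2, an endocytic adaptor (r = 0.986), Ankrd29, an ankyrin repeat protein (r = 0.985), and Tsc22d3, the glucocorticoid-induced leucine zipper (r = 0.984). Their sizes differed widely. Tsc22d3 showed a log2 fold change of 4.08 at 6 hrs (adjusted p = 0.00104) and 2.89 at 24 hrs (adjusted p = 0.00457), Ankrd29 of 1.26 (adjusted p = 0.0332) and 1.24 (adjusted p = 0.029), and Epn2 of 0.76 (adjusted p = 1) and 0.64 (adjusted p = 0.882). Most like Nr3c1 were Hbegf, a growth factor of the EGF family (r = 0.979), the immediate early gene Ier5 (r = 0.979) and Lin9, a regulator of cell cycle genes (r = 0.977). Hbegf showed a log2 fold change of -0.98 at 6 hrs (adjusted p = 0.482) and -1.07 at 24 hrs (adjusted p = 0.226), and none of the 3 was called at either time. The correlations share the 12 arrays and the treatment that splits them, and are given as a description.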

How the data were processed

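RNA of DEX and vehicle chondrocyte cultures was hybridized to 12 one-colour Affymetrix MOE430 2.0 arrays, read as 45101 probe sets. In GeneSpring GX the authors applied GC-RMA, and each deposited intensity is on a linear scale. The version of GC-RMA is not given in the sources used here, and probe-level values were not used here. GC-RMA sets weak probe sets to very low values, so that fold changes of dim probe sets are unstable, and the number of arrays limits the precision. Gene names came from the platform annotation (34958 probe sets with 1 gene symbol, 932 with several and 9211 with none listed), and no gene was named from a probe set with several symbols, except that the shared Ptges3 probe sets are given as such.

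Values were log2-transformed, with nothing added first. Those probe sets with a group mean of at least 50 in 1 or more groups (20897) were fitted together with limma 3.58.1 in R 4.3.3, with 1 mean per group over all 12 arrays and no block. The p-values were adjusted by the method of Benjamini and Hochberg at a threshold of 0.05, and intervals are 95% confidence intervals. The fit was tested on simulated data. Samples were grouped by the labels, and the array files gave the hybridization days. The replicate number was taken to pair DEX and vehicle arrays of a time. Same-numbered arrays deviated together from their group means (correlations 0.681, 0.632 and 0.863 at 6 hrs and 0.158, 0.301 and 0.22 at 24 hrs). Arrays of different numbers were not compared. Numbers and hybridization days go together in part, so these correlations cannot tell a shared pair from a shared day. Alternatives were each pair or hybridization day as a block, only the arrays of 1 time, other filters (none, or a minimum of 100), 16 added before log2, quantile or median scaling, array weights, the methods' test (their unequal-variance comparison, run here between DEX and vehicle on the 20897 probe sets, whose filter is not that of the methods), the mean of a gene's probe sets and each array left out.

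A gene was represented by the brightest of its tested probe sets over the 12 arrays. From each list (heat shock proteins, HSP90 co-chaperones, FK506 binding proteins, steroid and estrogen-related receptors, coregulators, steroid enzymes and carriers, nuclear import) the genes called in a DEX comparison were to be named and, where there was none, the gene with the smallest p over both times. Genes of like pattern were the 3 with the highest Pearson correlation. Marker lists covered cartilage, tendon and perichondrium fibroblasts, skeletal muscle, macrophages, endothelium, erythroid cells, osteoblasts and adipocytes. The genes and lists were chosen with earlier results of these data known.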

Additional observations from a re-analysis of the deposited data

Results flagged for a closer look

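The dim Fkbp4 probe set 1459808_at moved in opposite directions at the 2 times. DEX was above vehicle in all 3 pairs at 6 hrs (differences of 0.17, 0.05 and 0.84 on the log2 scale) and below it in all 3 pairs at 24 hrs (-1.02, -0.78 and -0.49). The response at 24 hrs minus that at 6 hrs was -1.12 (SE 0.30, unadjusted p = 0.0031 and adjusted p = 1 in limma), so the difference between the times did not pass the adjustment. Opposite signs in all pairs of the 2 times occurred in 1227 of 20897 tested probe sets (5.87%). The brightest Fkbp4 probe set, 1416362_a_at, had log2 fold changes of -0.14 and -0.04 at the 2 times, and the third, 1416363_at, of -0.03 and 0.37.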

How the results depend on the processing

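The call of Fkbp5 over both times held in all 23 alternatives run (log2 fold change 2.04 to 2.40, adjusted p from 2.01e-05 to 0.00997). Its call at 6 hrs held in 21 of 24 and was lost with only the arrays of that time (adjusted p = 0.147) and with the methods' test (1), both at an unchanged log2 fold change of 2.46, and without the 4 arrays of day 3 (0.0813, at 2.85), where each group of 6 hrs holds 1 array and the spread is that of the 24 hrs arrays. At 24 hrs it held in 19 of 24, and was also lost without the filter on low intensities (0.0831) and with the methods' test (0.577). For Nr3c1 over both times the log2 fold change ran from -0.51 to -0.36 with adjusted p from 0.0377 to 0.65, and 3 of 23 alternatives made a call. The mean of its tested probe sets gave -0.37 (adjusted p = 0.501 in limma). The cause of these changes was not tested.

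With each pair as a replicate block the 15 probe sets gave 2 calls at the earlier time, 2 at the later time and 4 over both (all probe sets 189, 449 and 668, and 1 for the difference between the times), and with day as a block 2, 2 and 4 (198, 455 and 600). With only the arrays of the time there were 0 and 2 calls (0 and 163 of all probe sets). Without a filter on low intensities there were 0 calls at 24 hrs and 1 over both times (18, 22 and 73 of all, and 1 for the difference). The methods' test gave 0, 0 and 1 (0, 0 and 38 of all) after adjustment, and 1, 1 and 3 (127, 380 and 330 of all) at an unadjusted p under 0.01. Array weights gave 2 at 6 hrs and 3 at 24 hrs (106, 488 and 484 of all, and 4 for the difference), the third being Fkbp4 1459808_at (adjusted p = 0.0442). Leaving out day 3, an alternative chosen after seeing the data, gave 2 at 24 hrs (163 of all, and 8 for the difference). With single arrays left out the 15 probe sets gave 1 to 1 calls at the earlier time, 0 to 2 at the later time and 1 to 2 over both (18 to 38, 16 to 88 and 90 to 156 of all).

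Within-day values aside, directions turned in the following cases, none of which was a call. For Fkbp4 at 6 hrs the mean of its probe sets gave 0.061. Quantile scaling gave -0.031 at 6 hrs and -0.023 over both times for Hsp90aa1, and 0.025 at 24 hrs and 0.0048 over both times for Ncoa1. Ncoa1 at 24 hrs was 0.0053 after median centring and 0.0095 with array weights. Without day 3, Stip1 at 6 hrs was 0.048, Ncoa1 at 6 hrs 0.0047, Fkbp4 1459808_at over both times 0.039, and the difference between times of Fkbp5 1448231_at -0.38. With single arrays left out, Nr3c1's difference between times ran from -0.0064 to 0.21, Hsp90aa1 from -0.092 to 0.19 at 6 hrs and -0.070 to 0.069 over both times, and Ncoa1 from -0.25 to 0.16, -0.19 to 0.15 and -0.13 to 0.074 for the 6 hrs, 24 hrs and combined comparisons. Of the values under alternatives for single probe sets, 682 were counted as unchanged, 16 passed the threshold newly, 18 no longer passed, 26 turned and 6 within-day values moved. Unchanged meant the same direction and side of the threshold, except for within-day values, which have no adjusted p. These counted as unchanged when closer to the main value than the standard deviation of the pair differences. Their direction was checked only where the main fit made a call.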
